A study of Caenorhabditis elegans with 43 samples.

Results

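A group of 122 *C. elegans* genes that the deposited table lists by a clone name, such as ZC15.10, had mRNA that was more abundant in 2 gain-of-function mutants of the transcription factor gene *atfs-1* than in wild-type (WT) worms, but not in the respiratory chain mutant *nuo-6*. They were chosen from 13837 genes, of which 6754 carry a clone name. A gene was taken when its mean of log2(normalized CPM + 0.5) was at least 1 higher in both the *et15* and the *et17* allele of *atfs-1* than in WT 1 to 3, when the same mean in *nuo-6* minus WT 4 to 9 was below 0.5, and when its mean in *atfs-1(et17)* was at least 1 normalized CPM. CPM is a gene's reads scaled to the library's total of counted reads, and normalized CPM is that value times a constant of each library. A set of 5 clone-named genes was left out of the rule by name. Without the limit on *nuo-6*, 237 clone-named genes passed. With that limit, 117 of the 7031 named genes passed the other thresholds as well.

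Since these differences from WT chose the genes, their values in these 3 mutants are given as a description with no test. For these genes, tests are given only for mutants that the choice did not use. The genes were chosen under a name that credits active ATFS-1 alone, and that name was not tested. Most of them were also higher in *nuo-6;hif-1* worms, which carry no *atfs-1* mutation in their label. That comparison used WT 1 to 3, in which the rule chose the genes low, and ATFS-1 activity there was not tested. WT 2 reached levels of *atfs-1(et17)*, and WT 7, of another sequencing batch, reached those of *atfs-1(et15)*. The genes also moved with genes of the molt across libraries, many of which the rule used. They are therefore called by their rule here, as the 122 unnamed genes.

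In healthy worms little ATFS-1 reaches the nucleus, since mitochondria take it up and destroy it. Poor mitochondrial import leaves it free to switch on genes for chaperones and proteases. This programme is the mitoUPR, the unfolded protein response of mitochondria. In the *et15* and *et17* alleles, point mutations weaken the targeting sequence, so that the protein is nuclear without mitochondrial stress. The files attach no gene name to these genes, and the annotation column of the deposited table gave a predicted function for 0 of the 122. The molt, in which the worm sheds its cuticle, drives a wave of cuticle collagens, peptidases and matrix proteins in each larval stage, and this wave ends as the animal becomes an adult and yolk and germline transcripts rise.

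RNA came from whole worms at the prefertile young adult stage, grown on NGM plates with OP50 bacteria, and from a plate of synchronized worms for each library. In sequencing batch 1 there were 5 *atfs-1(et15)*, 6 *atfs-1(et17)*, 2 *nuo-6(qm200);hif-1(ia4)*, 3 *hif-1(ia4)* and 3 atfs1DEL libraries, with WT 1 to 3. In batch 2 there were 6 *nuo-6(qm200)* libraries, with WT 4 to 9. In batch 3 there were 3 libraries labelled NA238 and 3 labelled atfs1, with WT b, bl and r. WT is N2 Bristol. The label atfs1DEL names a deletion without an allele, the label atfs1 names the gene alone, and *atfs-1(gk3094)* is the only *atfs-1* deletion among the study's strains. The label NA238 gives no genotype. The study's genotypes also include *nuo-6(qm200);atfs-1(gk3094)*, and NA238 is kept under its label. *nuo-6* encodes a subunit of respiratory complex I and *hif-1* the hypoxia inducible transcription factor.

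Between 21466920 and 48493377 reads were counted per library, with 30045912 to 35910882 in *atfs-1(et15)* and 30608444 to 37596520 in *atfs-1(et17)*. *hif-1* mRNA averaged 26.4 ± 7.12 normalized CPM in *hif-1* libraries and 39.2 ± 5.94 in *nuo-6;hif-1*, against 206 ± 14.4 in WT of their batch (SD, n = 3, 2 and 3). *atfs-1* mRNA averaged 25.5 ± 0.937 normalized CPM in atfs1DEL, against 70.3 ± 8.42 in WT of batch 1, and 26.6 ± 3.22 in atfs1 and 27.2 ± 1.83 in NA238, against 67.6 ± 10.1 in WT of batch 3 (SD, n = 3 each). The atfs1DEL libraries of batch 1 and the atfs1 libraries of batch 3 resembled each other one to one. The median chi-square per gene of their recovered reads was 1.49, 1.03 and 1.03 for the pairs 1 with b, 2 with bl and 3 with r, against 1.9 or more for libraries of 1 group and 0.455 from counting error alone. The 2 groups are therefore not read as independent of each other.

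The 122 genes differed more from WT in *atfs-1(et15)* than in *atfs-1(et17)*. The log2 difference from WT 1 to 3 ran from 1.15 to 5.51 in *atfs-1(et15)*, with a median of 2.58. In *atfs-1(et17)* it ran from 1.00 to 2.26, with a median of 1.28. In 121 of the 122 genes the *et15* difference was the greater. In *nuo-6* the difference from WT 4 to 9 ran from -5.25 to 0.49 with a median of -1.10. It was negative in 111 genes and at or below -1 in 71 of them, so that most were below WT there. Over all genes, 40.3% passed the limma test in *nuo-6* and 4.09% in *atfs-1(et17)*. Every *atfs-1(et15)* library lay above every WT library of batch 1 in 99 genes (81.1%), where the share over all genes was 15.6%. Every *atfs-1(et17)* library did so in 13 genes (10.7%), where the share over all genes was 4.73%. None lay wholly below WT in *atfs-1(et17)*, against 3.59% of all genes. Nothing is read from these shares, since the rule used the same libraries.

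The overlap came from particular libraries. WT 2 was the highest of the 3 WT libraries of batch 1 in 117 genes, *et17* 4 was the lowest *atfs-1(et17)* library in 94, and *et15* 3 was the highest *atfs-1(et15)* library in 107. The level of the whole group in a library, taken as the median log2 difference from the mean of WT 1 to 3, was 2.27 to 3.35 in *atfs-1(et15)* and 0.32 to 2.15 in *atfs-1(et17)*. In WT of batch 1 it was -0.58, 1.7 and -1.02. WT 6 and WT 7 of batch 2 had levels of 2.73 and 3.29. WT 7 exceeded the *atfs-1(et15)* mean in 95 of the 122 genes and WT 2 exceeded the *atfs-1(et17)* mean in 87. WT 2 exceeded the *atfs-1(et15)* mean in only 3 genes, and its level lay below that of every *atfs-1(et15)* library. By the level of the whole group, WT thus reached the *atfs-1(et17)* range within batch 1 but the *atfs-1(et15)* range only in batch 2. A difference between batches was not tested here.

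**Figure D1:**
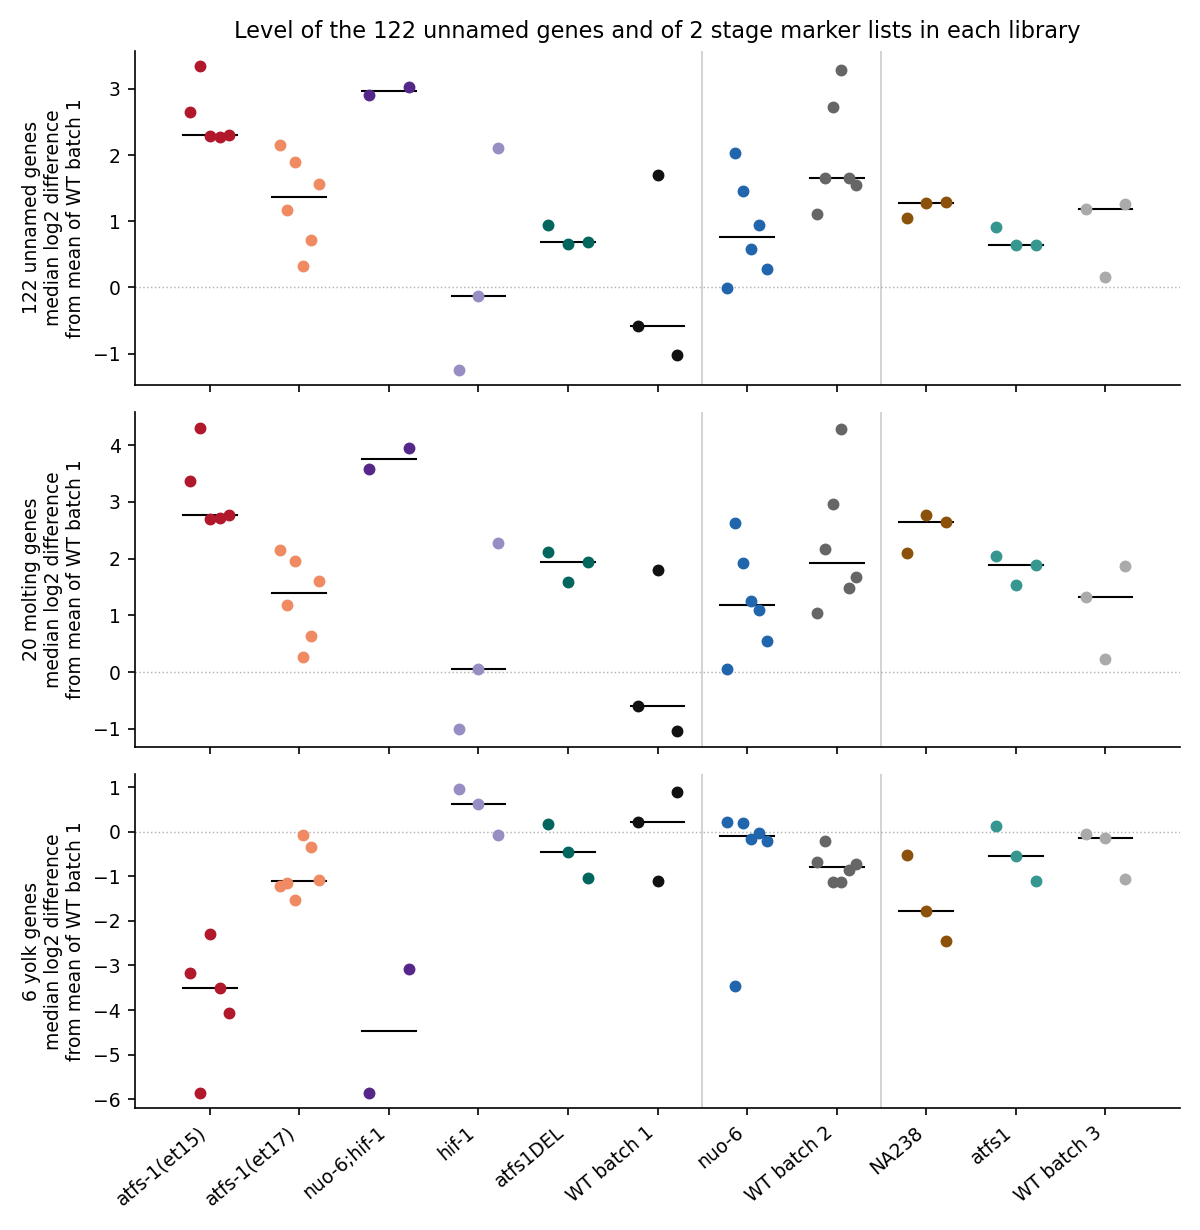
Each point is a library, and the vertical axes give the median log2 difference from the mean of WT 1 to 3 over the 122 unnamed genes (top), 20 molting genes (middle) and 6 yolk genes (bottom); bars are group medians and vertical lines part the sequencing batches. The *atfs-1(et15)* libraries sit at 2.27 to 3.35 in the top panel, while WT 2 and WT 7 reach 1.7 and 3.29 and hif-1 libraries spread from -1.24 to 2.10.

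The 10 genes with the largest value of the smaller of their 2 differences were Y65B4BL.1, E01G4.6, H42K12.3, D1054.9, F48G7.8, T28A11.19, ZC15.10, K08E7.5, F15B9.8 and Y71G12B.18. In all of these but F48G7.8, T28A11.19 and ZC15.10, WT 2 lay above at least 1 *atfs-1(et17)* library. E01G4.6, on chromosome II at 13482405 to 13485780 (WBcel235), had 1078, 1874, 887, 718 and 702 normalized CPM in the 5 *atfs-1(et15)* libraries and 854, 330, 662, 146, 249 and 432 in the 6 *atfs-1(et17)* libraries, against 52.6, 520 and 17.8 in WT 1 to 3. WT 2 lay above 4 of the 6 *atfs-1(et17)* libraries. In *nuo-6* it had 131, 792, 481, 233, 329 and 153 normalized CPM, against 287, 541, 1304, 1809, 523 and 558 in WT 4 to 9, and WT 7 came close to the highest *atfs-1(et15)* library.

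Y65B4BL.1 lies on chromosome I and overlaps a coding gene of the same strand, so its reads may be shared. It had 80.4, 168, 65.4, 47.6 and 45.1 normalized CPM in *atfs-1(et15)* and 43.7, 17.6, 24.5, 5.09, 12.9 and 23.1 in *atfs-1(et17)*, against 1.34, 22.8 and 0.764 in WT 1 to 3. WT 2 stood apart from the other 2 WT libraries here as well. H42K12.3, on chromosome X at 1311391 to 1316640, had 132, 223, 99.0, 90.2 and 75.6 normalized CPM in the *et15* mutant and 71.5, 25.3, 51.2, 10.4, 21.1 and 38.6 in the *et17* mutant, against 3.45, 46.2 and 1.74 in WT 1 to 3. Its 3 *hif-1* libraries had 2.61, 9.16 and 84.1, a spread as wide as that among the WT libraries. D1054.9, K08E7.5, F15B9.8 and Y71G12B.18 had the same order of libraries in WT and *hif-1*, with WT 2 and *hif-1* 3 the highest of their groups in each.

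ZC15.10, on chromosome V at 20310736 to 20311656, differed from those genes. It had 15.1, 13.4, 24.9, 23.2 and 16 normalized CPM in *atfs-1(et15)* and 4.67, 4.67, 5.0, 4.21, 4.46 and 5.41 in *atfs-1(et17)*, against 0.892, 1.12 and 0.825 in WT 1 to 3. The 3 groups did not overlap. In *nuo-6* it had 0.386 to 1.37 (median 0.870), against 0.477 to 1.03 (median 0.765) in WT 4 to 9, where the groups overlapped fully. T28A11.19, on chromosome V at 3268688 to 3269514, had 3.05, 4.17, 3.89, 5.23 and 4.14 normalized CPM in *atfs-1(et15)* and 1.66 to 4.31 (median 1.85) in *atfs-1(et17)*, against 0.208, 0.436 and 0.122 in WT 1 to 3. It was at 0 to 0.760 in *nuo-6* (median 0.184), against 0.0426 to 1.33 (median 0.428) in WT 4 to 9.

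Both F48G7 genes, 4087 bases apart on chromosome V, were high in *atfs-1(et15)* and *atfs-1(et17)*. F48G7.8 had 6.73, 3.37, 7.06, 6.16 and 7.19 normalized CPM in *atfs-1(et15)* and 1.67 to 6.73 (median 4.91) in *atfs-1(et17)*, against 0.802, 1.33 and 0.245 in WT 1 to 3. F48G7.5, at 622170 to 622935, had 47.6, 30.8, 44.8, 51.7 and 47.4 normalized CPM in *atfs-1(et15)* and 17.7 to 39.3 (median 32.2) in *atfs-1(et17)*, against 13.2, 20.8 and 5.56 in WT 1 to 3. In *et15* 3, the library highest for most of the 122 genes, both were lowest.

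The 3 genes with the largest difference between the alleles were F59C6.18, T26C5.2 and F23H12.5, by 4.18, 2.38 and 2.35 on the log2 scale in *et15* minus *et17*. F59C6.18 had 53.9, 87.7, 42.7, 37 and 28.3 normalized CPM in *atfs-1(et15)* and 3.70, 1.58, 3.27, 1.58, 1.01 and 2.31 in *atfs-1(et17)*, against 0.149, 1.2 and 0.489 in WT 1 to 3. No other group came near *et15*, since the next highest library was *nuo-6;hif-1* 3 with 9.44. At the other end, C06A5.12, T20B3.1 and R03D7.3 differed least between the alleles (-0.09, 0.24 and 0.35). C06A5.12 had 2.26, 1.67, 2.32, 1.78 and 2.06 normalized CPM in *atfs-1(et15)* and 2.75, 2.60, 1.66, 2.06, 2.16 and 1.94 in *atfs-1(et17)*, against 0.654, 0.653 and 0.581 in WT 1 to 3.

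By normalized CPM, which is not divided by gene length, E01G4.6, ZK180.6, T19B10.2, K02E11.10 and F13H8.5 had the highest means in *atfs-1(et17)*. T19B10.2 had 258 to 579 normalized CPM in *atfs-1(et15)* (median 327) and 106 to 303 in *atfs-1(et17)* (median 170), against 48.1, 168 and 39.0 in WT 1 to 3. K02E11.10 had 129, 123, 135, 136 and 87.9 in *atfs-1(et15)* and 41.9 to 209 in *atfs-1(et17)* (median 82.1), against 25.3, 146 and 9.42 in WT 1 to 3. WT 2 exceeded every *atfs-1(et15)* library of that gene.

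At the edges of the rule the values ran on without a gap. Just inside, R03D7.3, T19A5.3 and R12C12.10 had *atfs-1(et17)* differences of 1.00 each, and just outside, Y47D3B.3, C26B9.7 and H03E18.1 had 0.9998, 0.999 and 0.999. For the limit on *nuo-6*, C06A5.12, F48G7.8 and T20B3.1 lay just inside with 0.49, 0.48 and 0.43, and ZK1307.1, K09C6.9 and M162.12 just outside with 0.53, 0.54 and 0.61. The number of genes that meet the rule was 122 with all libraries, 281 without WT 2, 58 without WT 1 and 34 without WT 3.

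The 3 genes with the lowest *nuo-6* differences, BE0003N10.6, D1014.6 and D1014.7, had under 1 normalized CPM in every *nuo-6* library. Every *nuo-6* library lay below every WT library of batch 2 in 9 of the 122, a share near the 6.09% of all genes. Nothing is read from this count, since the rule used the same libraries. The 9 also hold genes far from 0, such as ZK180.6 with 33.1 to 169 normalized CPM in *nuo-6*. BE0003N10.6, on chromosome III at 1056230 to 1060061, had 0.536 to 0.829 normalized CPM in *nuo-6* (median 0.746), against 30 to 82.4 in WT 4 to 9 (median 46.5). In the 2 *nuo-6;hif-1* libraries it had 0.831 and 1.74, against 9.48, 48.7 and 6.63 in WT 1 to 3, a log2 difference of -3.14 that passed the test (limma adjusted p = 0.00184). In NA238 it had 13.7, 10.3 and 26.3, against 51.3, 25.7 and 44.0 in WT of batch 3 (adjusted p = 0.225), so it was not near 0 there. D1014.6 and D1014.7, adjacent on chromosome V, were likewise low. D1014.6 had 0 to 0.0414 normalized CPM in *nuo-6*, with 3 libraries at 0, and 0.267 and 0.324 in *nuo-6;hif-1*, against 4.52 to 18.0 in WT 4 to 9 and 0.832, 10.7 and 0.856 in WT 1 to 3. D1014.7 had 0.145 to 0.398 in *nuo-6*, against 2.93 to 19.4 in WT 4 to 9. The next gene of that cluster, D1014.5, had 1.47 to 8.4 in *nuo-6* (median 2.72), against 5.63 to 50.1 in WT 4 to 9 (median 13.7).

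The *nuo-6;hif-1* libraries took no part in the choice, but they are set against WT 1 to 3, which the rule used and in which the genes were chosen low. The comparison is therefore not independent of the rule, and the choice fixed part of its size. The question is whether a mutant with no *atfs-1* allele in its label also raises them. Of the 122 genes 114 passed the test, all but 1 of them as higher, with a median log2 difference of 2.95 (limma, Benjamini-Hochberg adjusted p under 0.05 over 13837 genes). Over all genes, 56% passed, with 29.8% called higher and 26.2% lower, with a median difference of 0.04. Both *nuo-6;hif-1* libraries lay above all 3 WT libraries in 109 of the 122 genes (89.3%), against 34.5% of all genes. Leaving out 1 library at a time gave 97 to 116 calls. Of the 19 mitoUPR genes followed further on, 5 were called higher and 4 lower in *nuo-6;hif-1*. Whether ATFS-1 was active there was not tested. In the same libraries the median difference of 20 molting genes was 3.79 and that of 6 yolk genes -4.54. An index of stage markers, described further on, was also used as a covariate. With it 9 of the 122 genes were called higher and 10 lower, with a median of -0.63. The share of all genes called with it is not given here. The *nuo-6* libraries of batch 2 and the *nuo-6;hif-1* libraries of batch 1 were set against different WT libraries, and their difference from each other was not tested.

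Y65B4BL.1 had 172 and 107 normalized CPM in *nuo-6;hif-1*, against 1.34, 22.8 and 0.764 in WT 1 to 3, a log2 difference of 5.17, the largest of the 122. T28A11.19 had 9.79 and 3.91, against 0.208, 0.436 and 0.122 in WT 1 to 3, and rose by 3.18 ± 0.40 (SE, adjusted p = 1.5e-07). The first of these lay above the *atfs-1(et15)* range of 3.05 to 5.23 and the second within it. The genes not called higher were BE0003N10.6, Y54G2A.36, D1014.6, ZK180.6, D1014.7, K02E11.10, ZK1025.3, D1014.5 and F54D10.8. Of these, D1014.6, D1014.7, ZK1025.3 and F54D10.8 had differences of -1.78, -0.96, -1.13 and -0.89 that did not pass (adjusted p = 0.113, 0.392, 0.332 and 0.258). All of these 4 and BE0003N10.6 also had negative *nuo-6* differences.

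**Figure D2:**
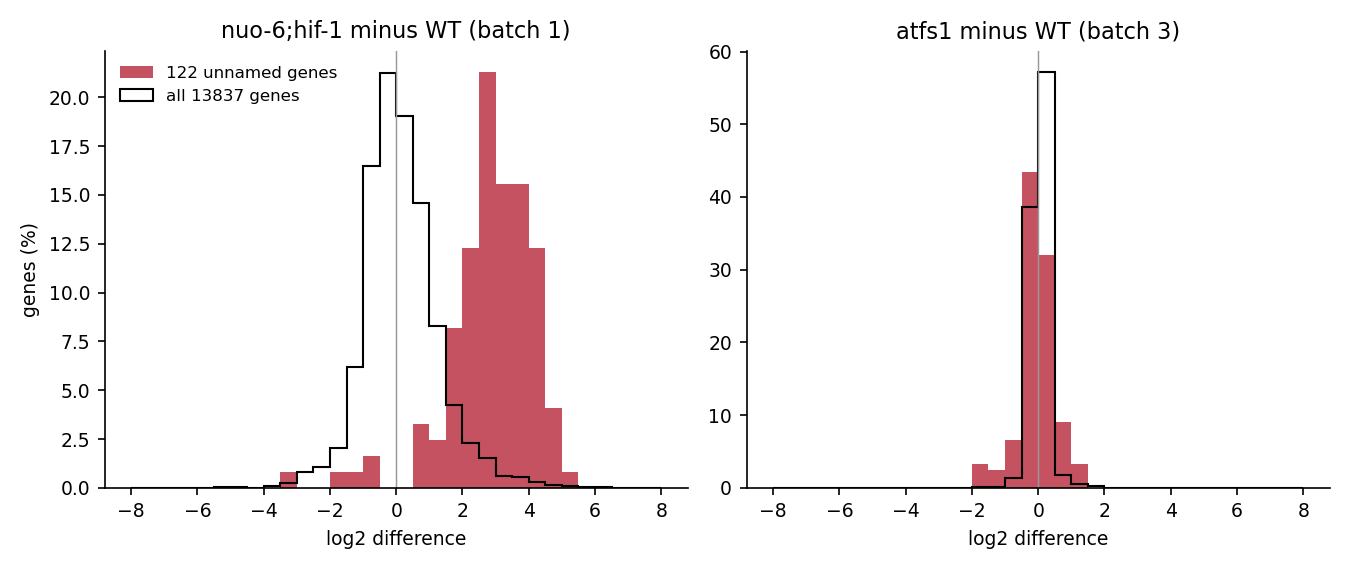
Histograms of the log2 difference, in steps of 0.5, for the 122 unnamed genes (filled) and all 13837 genes (outline), as a share of genes in percent, for nuo-6;hif-1 minus WT 1 to 3 (left) and atfs1 minus WT of batch 3 (right). The unnamed genes centre on 2.95 on the left and on -0.05 on the right.

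Few of the genes passed the test in the atfs1 libraries. The atfs1 libraries and the WT libraries of batch 3 took no part in the choice. There, 0 genes were called higher and 1 lower among the 122, with a median log2 difference of -0.05, and over all genes 0.188% were called, 0.152% higher and 0.0361% lower. At an unadjusted p under 0.05, 0 were higher and 8 lower. The share of all genes at that p is not given here, so nothing is read from these counts. edgeR and DESeq2 also called 0 higher and 1 lower, where over all genes they called 31 and 50. Every atfs1 library lay below every WT library in 11 of the 122 genes (9.02%), against 7.54% of all genes, and above them in 3 (2.46%), against 8.87%.

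The gene called was F35F10.5, on chromosome V at 3284929 to 3285902. It had 1.34, 1.5 and 1.92 normalized CPM in atfs1 and 1.44, 1.59 and 2.20 in NA238, against 5.63, 5.07 and 6.59 in WT of batch 3. In atfs1DEL it had 1.34, 1.41 and 1.11, against 3.12, 2.86 and 4.56 in WT 1 to 3. None of these groups overlapped its WT. F35F10.5 fell by 1.59 on the log2 scale in atfs1 (SE 0.35, adjusted p = 0.0334), by 1.49 in NA238 (SE 0.35, adjusted p = 0.00252) and by 1.15 in atfs1DEL (SE 0.35, adjusted p = 0.0132). In atfs1 the call was lost when any of the 6 libraries was left out. In *atfs-1(et15)* it had 16.7, 23.3, 18.6, 15.3 and 13 and in *atfs-1(et17)* 6.53 to 10.9 (median 7.22). Its *nuo-6;hif-1* libraries had 10.6 and 13.2. F35F10.5 was thus the lone gene of the 122 called lower in atfs1, NA238 and atfs1DEL. These calls are not independent, since atfs1 and atfs1DEL were closely alike and atfs1 and NA238 were set against the same WT libraries.

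In NA238, 4 of the 122 genes were called higher and 1 lower, where over all genes 17.2% were called, 11.1% higher and 6.03% lower. Every NA238 library lay above every WT library in 20 genes, against 24.6% of all genes, and below in 5, against 21.8%. These WT libraries took no part in the rule. The median was 0.40 and 95 of the genes had a positive difference. Those called higher were Y39A1A.9, C09F9.2, F44E2.4 and C06A5.12, by 2.14, 2.08, 1.97 and 0.54. C09F9.2 had 30.8, 50.7 and 40.1 normalized CPM in NA238, against 9.63, 4.21 and 17.4 in WT of batch 3, with no overlap. The number of calls in NA238 was 1 without WT b, WT bl or NA238 r, 2 without NA238 bl and 3 without NA238 b. With the stage covariate 4 were called higher and 15 lower, with a median of -0.39, beside a median of 0.91 for the 20 molting genes without it. The share of all genes called with the covariate is not given here.

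In atfs1DEL, 17 of the genes were called higher and 4 lower, where over all genes 31.8% were called, 18.0% higher and 13.8% lower. Every atfs1DEL library lay above every WT library of batch 1 in 13 genes, against 32.6% of all genes, and below in 7, against 22.5%. The balance of calls turned with the method, since edgeR and DESeq2 each called 2 higher and 8 lower, and the stage covariate gave 15 higher and 30 lower, with a median of -0.25 against 0.70 without it. WT 1 to 3 were chosen low by the rule here too, and 7 of the 20 molting genes were called higher and 1 lower, with a median of 1.90. The 6 largest were Y65B4BL.1, K08B12.1, T26C5.2, F09F9.2, Y102A11A.5 and F23H12.5, by 2.66, 2.62, 2.57, 2.55, 2.53 and 2.49. K08B12.1 had 10.3, 8.65 and 14.4 normalized CPM in atfs1DEL, against 0.624, 7.84 and 0.183 in WT 1 to 3. In the closely alike atfs1 libraries it had 10.6, 7.82 and 13.7, against 6.78, 2.26 and 17.4 in WT of batch 3, where the groups overlapped. The levels in atfs1DEL and atfs1 were nearly the same, and those of the 2 sets of WT libraries differed. In all, 41 genes were below WT in atfs1 and above WT in atfs1DEL. The number of calls in atfs1DEL was 42 without WT 2, 4 without WT 1, 6 without WT 3, and 8, 6 and 3 without atfs1DEL 1, 2 and 3.

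Those called lower in atfs1DEL were F48G7.5, F35F10.5, F35F10.13 and ZC15.10. F48G7.5 had 1.16, 1.21 and 1.01 normalized CPM in atfs1DEL, against 13.2, 20.8 and 5.56 in WT 1 to 3, and fell by 2.90 on the log2 scale (SE 0.38, adjusted p = 1.78e-06). In atfs1 it had 0.907, 0.760 and 0.821 and in NA238 1.44, 2.52 and 1.85, against 2.73, 2.05 and 2.22 in WT of batch 3. The WT level was thus several times lower in batch 3 than in batch 1, and the difference in atfs1 of -1.09 did not pass (adjusted p = 0.812). F35F10.13 had 0.505, 0.338 and 0.265 in atfs1DEL, against 0.892, 1.28 and 1.16 in WT 1 to 3 (log2 difference -0.89, adjusted p = 0.0209). ZC15.10 had 0.416, 0.423 and 0.292 in atfs1DEL, against 0.892, 1.12 and 0.825 in WT 1 to 3 (-0.72, adjusted p = 0.0141), but its atfs1 libraries had 0.252, 0.152 and 0.505, against 0.380, 0.355 and 0.350 in WT of batch 3, which overlapped.

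In *hif-1*, 1 of the 122 genes was called higher and 0 lower, where over all genes 0.52% were called, 0.369% higher and 0.152% lower (limma). Every *hif-1* library lay above every WT library in 5 genes, against 4.97% of all genes, and below in 0, against 4.29%. At an unadjusted p under 0.05, 4 were higher and 0 lower, counts not read since the share of all genes at that p is not given here. edgeR and DESeq2 also called 1 higher and 0 lower, where over all genes they called 81 and 125. The gene was C06A5.12, with 1.59, 1.65 and 1.37 normalized CPM in *hif-1*, against 0.654, 0.653 and 0.581 in WT 1 to 3 (log2 difference 0.85 ± 0.17 SE, adjusted p = 0.00621). The call was lost without *hif-1* 1 or *hif-1* 2. Higher calls for C06A5.12 were also made in *nuo-6;hif-1* (1.57 and 1.77) and atfs1DEL (1.01, 1.30 and 0.982), against the same WT libraries. The rule chose the genes low in WT 1 to 3, so the calls in *hif-1*, *nuo-6;hif-1* and atfs1DEL are not independent of it. In NA238, C06A5.12 was called higher as well (1.93, 1.57 and 1.71, against 1.02, 0.964 and 1.12 in WT of batch 3). The atfs1 libraries, closely alike to atfs1DEL, had 0.983, 0.955 and 1.18, which overlapped WT of batch 3. C06A5.12 lies opposite the coding gene C06A5.2, whose level did not pass the test in either *atfs-1* gain-of-function mutant (0.21 in *et15* and -0.05 in *et17*).

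Molting markers moved with the 122 genes in most groups, and the other stage lists did so in part. Of 20 genes of the molt and cuticle, 15 were called higher in *atfs-1(et15)* and 16 in *nuo-6;hif-1*, with medians of 3.21 and 3.79. In *atfs-1(et17)* the median was 1.32 with 0 called. At an unadjusted p under 0.05, 7 of the 20 were higher, with no share of all genes given at that p. The 6 yolk genes were all called lower in *atfs-1(et15)* and *nuo-6;hif-1*, with medians of -3.79 and -4.54, and 10 and 20 of 20 oocyte and eggshell genes and 20 and 28 of 30 sperm genes were called lower in these mutants. The summed molting list had 1865 to 5939 normalized CPM in *atfs-1(et15)*, 483 to 1549 in *atfs-1(et17)* and 4150 to 4157 in *nuo-6;hif-1*, against 272 to 1232 in WT 1 to 3. It had 374 to 1791 in *nuo-6*, against 805 to 6308 in WT 4 to 9. The summed yolk list had 1674 to 14384 in *atfs-1(et15)*, 22085 to 46591 in *atfs-1(et17)* and 2005 to 8199 in *nuo-6;hif-1*, against 27022 to 76683 in WT 1 to 3. The lists did not always go together. In atfs1DEL the molting median was 1.90, while the oocyte and eggshell median was 0.72 with 0 called. WT 7, WT 2 and *et15* 3 had yolk levels of -1.12, -1.11 and -5.86, where the levels of the 122 genes were 3.29, 1.7 and 3.35. No marker of the 4 lists was at 0 in any library. In whole worms, fewer cells of a type and less RNA per cell cannot be told apart.

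**Figure D3:**
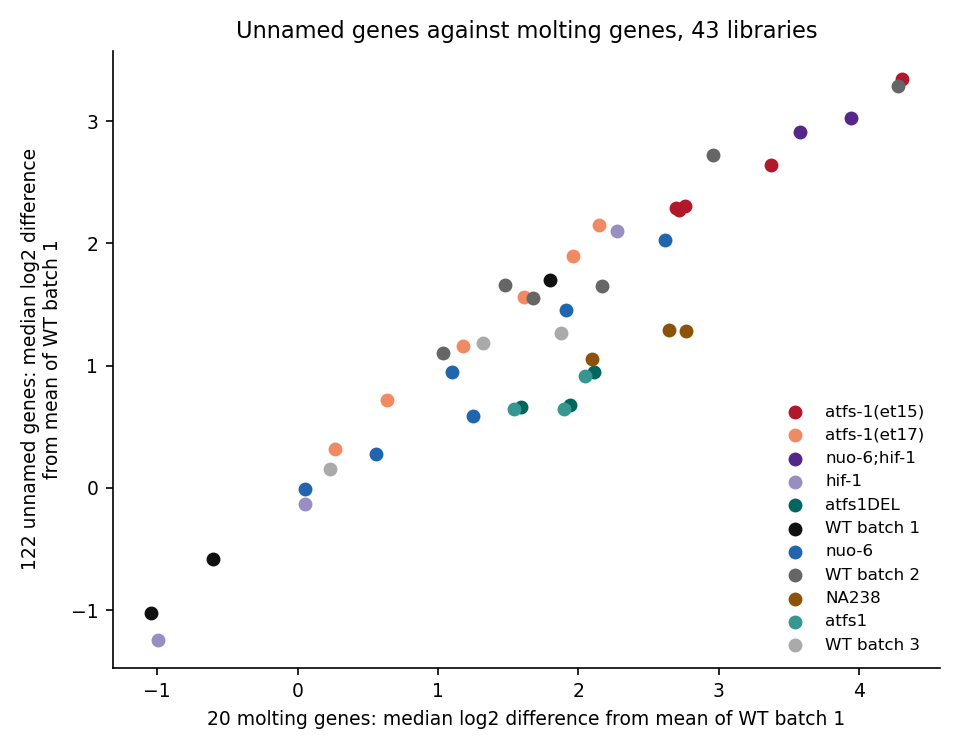
Each point is 1 of the 43 libraries; the horizontal axis is the median log2 difference of 20 molting genes from the mean of WT 1 to 3, and the vertical axis is that of the 122 unnamed genes. WT 7 (4.28 and 3.29) lies beside *et15* 3 (4.31 and 3.35), and WT 3 (-1.05 and -1.02) lies at the lower end.

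A stage index was made as the first principal component, within the 12 WT libraries, of 76 genes of the molting, yolk, oocyte and sperm lists, and held 82.6% of their variance there. Over the 43 libraries, which share stage and batch, 85 of the 122 genes (69.7%) had a Pearson correlation above 0.8 with the index, against 4.35% of all genes. Within the 12 WT libraries 104 genes (85.2%) did, against 8.08% of all genes. Many of the 43 libraries took part in the rule, which chose genes higher in *atfs-1(et15)* than in WT of its batch. The index itself ran from 5.65 to 18.9 in *atfs-1(et15)* and from -11.7 to 1.88 in those WT libraries. The choice therefore fixed part of the first count, and its excess over all genes is not read as independent of the rule. The second count uses libraries with no mutation, though 9 of them took part in the rule. With the index as a covariate in the fit, the median difference of the 122 genes was 0.05 in *atfs-1(et15)*, 0.37 in *atfs-1(et17)*, -0.59 in *nuo-6* and -0.63 in *nuo-6;hif-1*. In *atfs-1(et15)* 58 of the genes were then below 0. The covariate takes up any effect of the mutation that runs along the index, so stage and mutation cannot be told apart by it. In *nuo-6;hif-1*, 9 of the 122 were then called higher and 10 lower, with no share of all genes given for that fit.

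**Figure D4:**
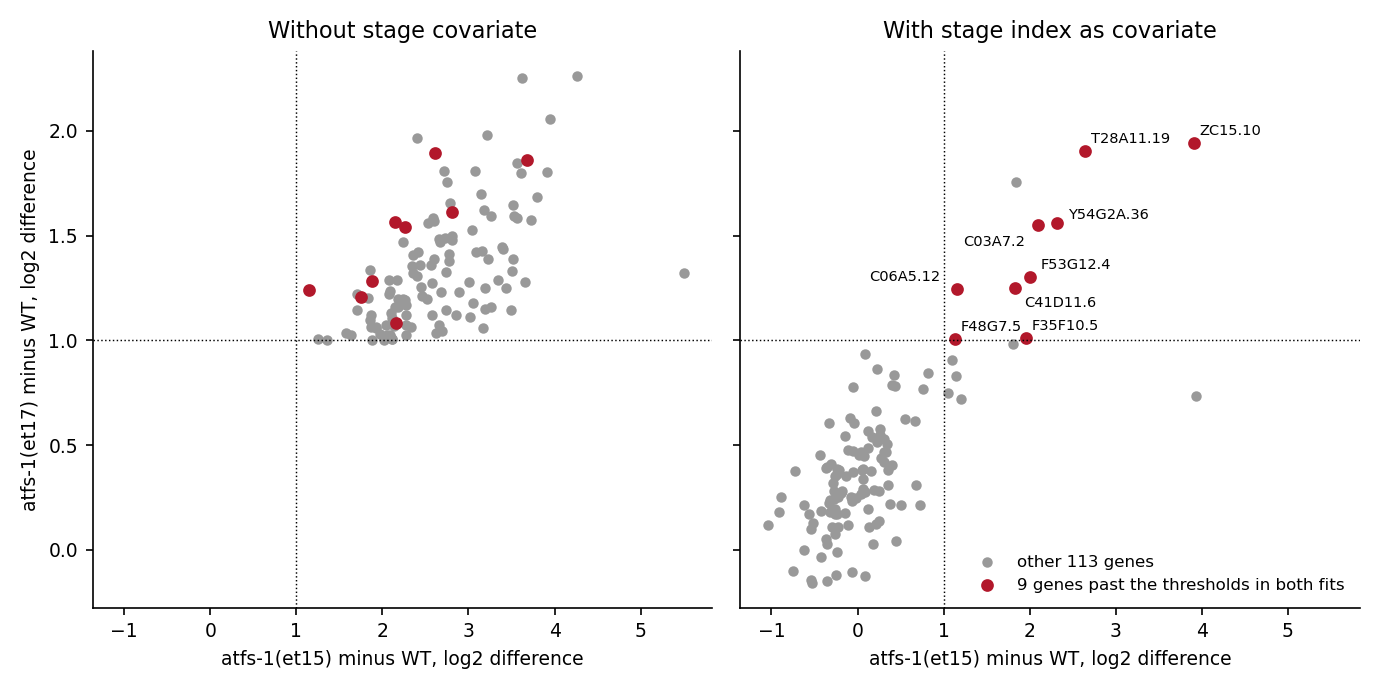
Log2 difference from WT 1 to 3 in *atfs-1(et15)* (horizontal) and *atfs-1(et17)* (vertical) of the 122 unnamed genes, without (left) and with (right) the stage index as a covariate; dotted lines mark the thresholds of 1. Red points are the 9 genes past the thresholds in both fits, and the rest gather near 0.05 and 0.37 on the right.

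With the covariate, 16 of the 122 genes kept a difference of at least 1 in *atfs-1(et15)*. In *atfs-1(et17)* 10 did so, and 9 kept all thresholds of the rule. They were ZC15.10 (3.90 in *et15* and 1.94 in *et17*), T28A11.19 (2.64 and 1.90), Y54G2A.36 (2.32 and 1.56), C03A7.2 (2.10 and 1.55), F53G12.4 (2.00 and 1.30), C41D11.6 (1.83 and 1.25), F35F10.5 (1.96 and 1.01), C06A5.12 (1.15 and 1.24) and F48G7.5 (1.13 and 1.00). F48G7.8 had 1.84 and 1.76 but a *nuo-6* difference of 0.59, above the limit. These genes were singled out after their values were seen, and no test is given for them as a set.

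C03A7.2, on chromosome V at 5181912 to 5183717, had 2.13, 3.48, 2.21, 2.14 and 2.79 normalized CPM in *atfs-1(et15)* and 1.05, 1.35, 1.40, 1.75, 1.76 and 1.94 in *atfs-1(et17)*, against 0.208, 0.218 and 0.122 in WT 1 to 3. Its 2 *nuo-6;hif-1* libraries had 3.71 and 1.35. F53G12.4, on chromosome I, had 2.00, 1.67, 2.92, 3.00 and 2.97 in *atfs-1(et15)* and 1.15 to 1.79 in *atfs-1(et17)* (median 1.59), against 0.386, 0.327 and 0.428 in WT 1 to 3, and only 0.920 and 0.618 in *nuo-6;hif-1*. In C03A7.2 the *et15*, *et17* and WT 1 to 3 libraries did not overlap, and in F53G12.4 the ranges of the 2 alleles overlapped but both lay above WT 1 to 3. The counts were low, since WT 1 to 3 held as few as 4 reads of C03A7.2 and 12 of F53G12.4.

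C41D11.6, which a later Ensembl release names *sosi-1*, had 18.6, 36.9, 12.2, 6.62 and 9.18 normalized CPM in *atfs-1(et15)* and 5.13, 3.79, 8.51, 4.98, 6.48 and 6.85 in *atfs-1(et17)*, against 1.28, 3.08 and 0.856 in WT 1 to 3. All 11 *atfs-1* libraries lay above the 3 WT libraries, as did *nuo-6;hif-1* with 29.5 and 20.5. The gene lies opposite *eri-6*, which encodes a helicase of the small RNA pathway. *eri-6* had log2 differences of 0.42 in *et15* and 0.45 in *et17* that did not pass (adjusted p = 0.0501 and 0.127). Y54G2A.36, on chromosome IV at 2897694 to 2901651, had 26, 24.4, 12.2, 13 and 15.3 in *atfs-1(et15)* and 4.53 to 19 in *atfs-1(et17)* (median 11.6), against 2.02, 4.25 and 3.73 in WT 1 to 3. One WT library of batch 2, WT 9, had 21.0, within the *atfs-1(et15)* range.

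**Figure D5:**
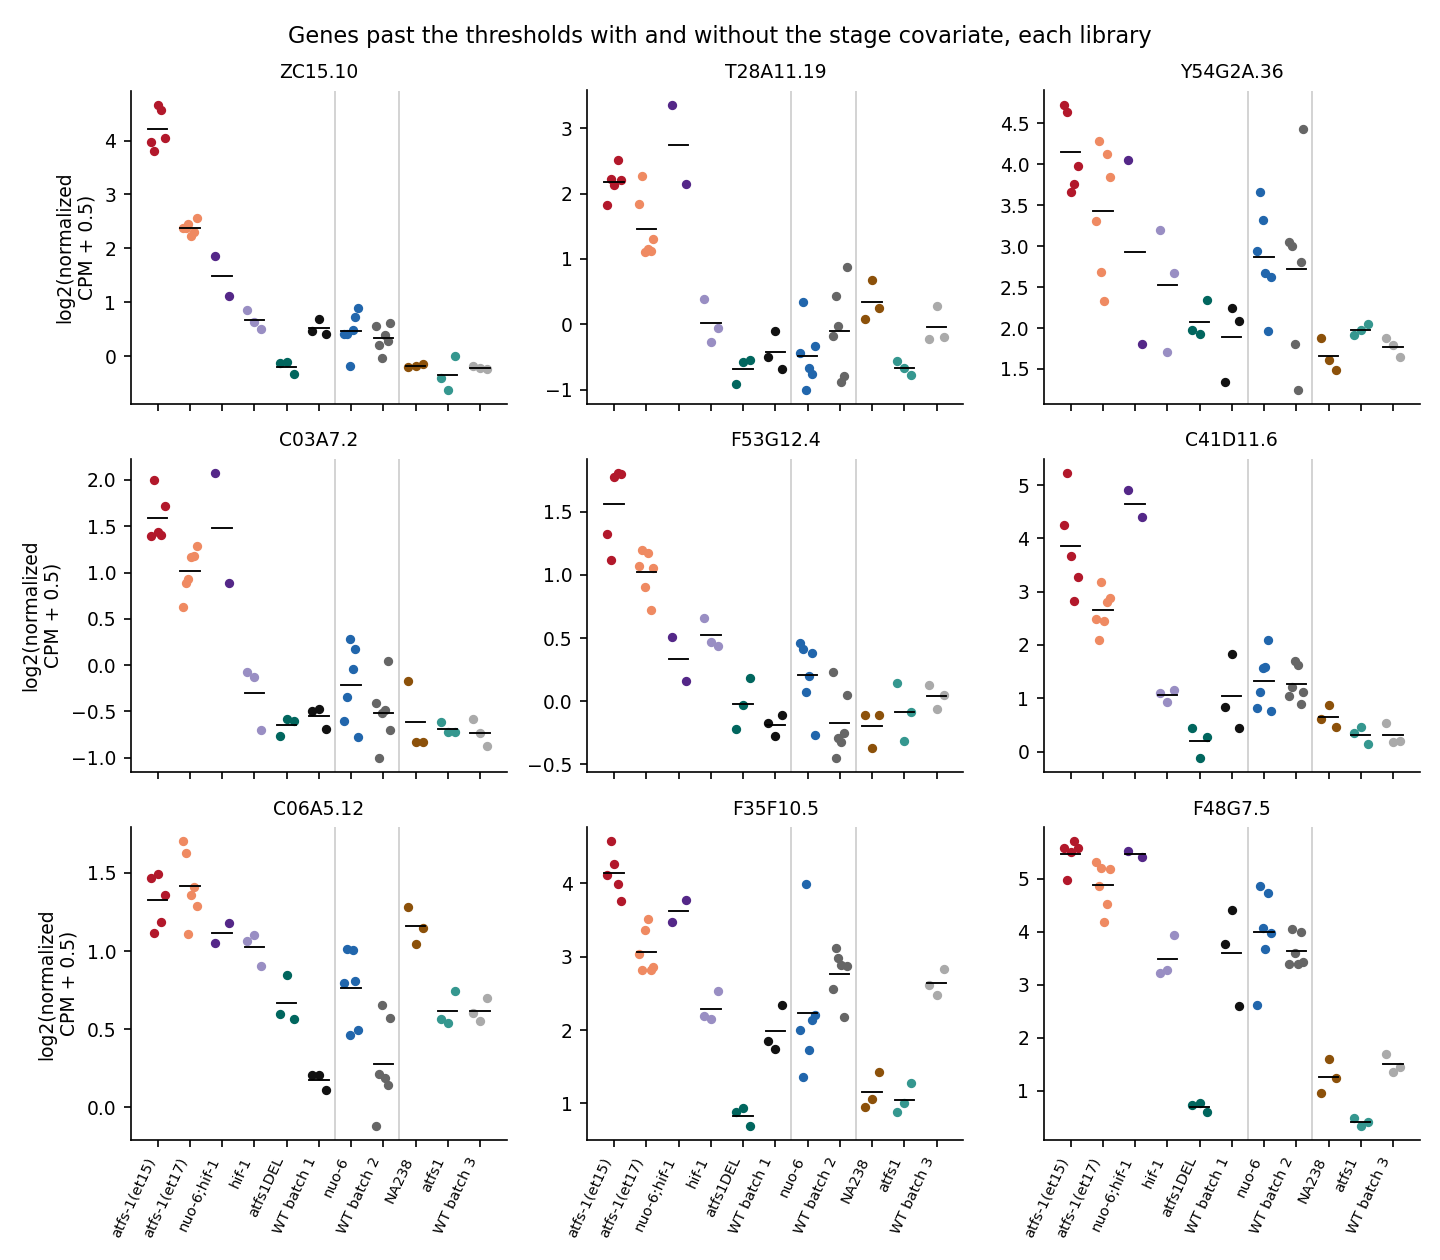
log2(normalized CPM + 0.5) of the 9 genes in each library by group, with bars at group means and vertical lines between sequencing batches; the vertical axes do not start at 0. ZC15.10 and F53G12.4 stand highest in *atfs-1(et15)* and next in *atfs-1(et17)*, and F35F10.5 is low in atfs1DEL, NA238 and atfs1. All of the genes but Y54G2A.36 lie above WT 1 to 3 in both nuo-6;hif-1 libraries.

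For comparison with known targets, 19 genes of the mitoUPR were followed. They carry names and could not be chosen by the rule. In *atfs-1(et15)*, 6 were called higher and 2 lower with a median of 0.28, where over all genes 16.9% were called higher and 16.4% lower. In the *et17* allele 3 rose and 0 fell, with a median of 0.25, where over all genes 2.85% were called higher and 1.24% lower, and at an unadjusted p under 0.05 these counts were 7 and 0. The share of all genes at that unadjusted p is not given here. edgeR called 3 higher and 0 lower there and DESeq2 4 and 0, where over all genes they called 565 and 717. In *nuo-6*, 8 were called higher and 2 lower with a median of 0.13, where over all genes 22.4% were called higher and 18.0% lower. Without WT 3, the *et15* count was 4 higher and 0 lower.

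*hsp-6*, the mitochondrial HSP70 chaperone, had 1271 to 1677 normalized CPM in *atfs-1(et15)* and 1275 to 1750 in *atfs-1(et17)*, against 627 to 787 in WT 1 to 3, with no overlap. It rose by 1.01 ± 0.18 in *et15*, by 1.03 ± 0.17 in *et17* and by 0.73 ± 0.14 in *nuo-6* (log2, SE, adjusted p = 4.7e-05, 5.8e-05 and 7.5e-05). *timm-23*, a channel of the inner membrane import machinery, rose by 0.84, 0.69 and 0.93, and the mitochondrial DnaJ co-chaperone gene *dnj-10* by 0.89, 0.68 and 0.83 in the same mutants. *hsp-60*, the mitochondrial chaperonin, had differences of -0.21 and -0.18 in *et15* and *et17* that did not pass (adjusted p = 0.438 and 0.781) and fell by 0.57 in *nuo-6* (adjusted p = 0.00389). *lin-65* and *met-2*, which act on chromatin in this response, fell by 0.58 and 0.57 in *et15*, the 2 lower calls there. With the stage index as a covariate, 5 of the 19 genes were called higher in *et15* and 0 lower, with no share of all genes given for that fit. In *nuo-6;hif-1* the differences of *lin-65* and *met-2* were -0.90 and -0.64. In atfs1, 0 of the 19 genes were called higher and 1 lower (*atfs-1* itself), with the same counts at an unadjusted p under 0.05.

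The 122 genes are spread over all chromosomes, with 33 on V (27.0%, against 19.4% of the genes tested), 27 on II, 20 on X, 15 on IV, 14 on I and 12 on III. The later annotation holds 118 as protein-coding, 2 as pseudogenes (R155.4 and R03D7.3) and 1 as a non-coding RNA (Y65B4BM.2), and has no entry for F53B1.4. Their median exonic length was 1207 bases. It names 8 of them: K04H4.2 (*chtb-1*), C14F11.6 (*rml-3*), C41D11.6 (*sosi-1*), Y55F3AM.14 (*znf-782*), C13C12.2 (*dyf-4*), F22F4.1 (*sups-1*), C32H11.5 (*srlf-4*) and C06G1.2 (*cpg-19*). Some lie side by side. T20D4.11 and T20D4.10 are adjacent on the same strand of chromosome V, 612 bases apart, and had 16.3 to 22.4 and 12.4 to 20.6 normalized CPM in *atfs-1(et15)*, against 4.0 to 6.53 and 1.83 to 4.87 in WT 1 to 3. D1014.7, D1014.6 and D1014.5 follow each other on one strand. T28A11.19 and F35F10.5 lie 15415 bases apart. Pairs within 20 kb were also R02E4.3 with F09F9.2, Y11D7A.5 with Y11D7A.9, C27D9.2 with F26G1.9, Y53F4B.25 with Y53F4B.27 and Y65B4BL.1 with Y65B4BM.2.

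The genes not yet named are listed by chromosome. The ranges and counts given with them cover all genes of the group on that chromosome, including those described above, and the genes not yet named were not summarized apart. On I, the others were T06G6.6, ZC434.3, F30A10.2, Y52B11B.1, ZC123.1 and Y71G12B.25, and the 14 genes there had *et15* differences of 1.15 to 5.51. On II they were F33A8.7, F28C6.5, T01B7.13, C14A4.9, T06D8.10, C01F1.5, F56D3.1, C07E3.10, Y46G5A.29, F49C5.11, C23H3.9, T05C1.3, C38C6.3, F01D5.6, C50D2.1 and T24F1.7. All 27 genes on II had a negative *nuo-6* difference, from -2.02 to -0.01, and 26 were called higher in *nuo-6;hif-1*, against 29.8% of all genes. On III they were F30H5.3, T19C3.2, R74.2, F56D2.3, T17H7.7, B0280.7 and Y54F10AM.6, and the 12 genes there had *et17* differences of 1.03 to 1.7.

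On IV they were F33D4.6, C02F4.4, Y43D4A.5, Y37A1B.7, C49H3.16, Y62E10A.19, Y54G2A.76 and R05G6.9, with *et15* differences of 2.08 to 3.61 over the 15 genes. On V they were F58E6.13, F58H1.2, Y75B7AR.1, K02E2.8, Y32G9B.1, M03F8.1, H23N18.5, W02F12.8, F32D1.11, F15H10.8, M01B2.8 and W08G11.1. Of the 33 genes on V, 29 were called higher in *nuo-6;hif-1*, against 29.8% of all genes. On X they were F49E10.2, Y34B4A.10, M03B6.3, F46C8.8, R07E3.6, R07B1.13, F26A10.2, F40E10.5, F39D8.3, C11H1.5, C26B9.3, C34F6.1 and R01E6.2. All 20 genes on X were called higher in *nuo-6;hif-1*, by 2.18 to 4.79, and all 20 had negative *nuo-6* differences, from -1.68 to -0.58. F53B1.4 had 77.3 to 169 normalized CPM in *atfs-1(et15)* and 22.9 to 120 in *atfs-1(et17)*, against 4.19 to 77.5 in WT 1 to 3.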

How the data were processed

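The authors aligned reads of stranded mRNA libraries to WBcel235 with STAR 2.5.2b and counted them per Ensembl gene. They deposited CPM for 46739 genes, and a filtered table of 13837 genes whose values are a signal: each library's CPM times a constant. From principal component plots, they dropped 1 *atfs-1(et15)* and 1 *nuo-6;hif-1* library. Whether counting used strand is not given in the sources used here, so the 45 genes that overlap a coding gene, 43 of them on the opposite strand, are uncertain.

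The 122 genes, the gene lists and the tests were chosen with earlier results of these data known. Log2(normalized CPM + 0.5) was fitted with limma 3.58.1 (trend, empirical Bayes, R 4.3.3) over all 43 libraries with genotype and sequencing batch, as in the study's methods, with Benjamini-Hochberg adjustment over 13837 genes and calls at an adjusted p under 0.05. Each mutant lies in 1 batch, so a difference is its mean minus that of WT in its own batch. Fold changes on this scale understate those of low genes. Whole reads were recovered from the CPM (100% of values within 0.01 of a whole number) for edgeR 4.0.16 and DESeq2 1.42.0, used as alternatives. The limma fit was tested on simulated data. The study states that RNA was isolated independently for each sample. Depth ranged from 21466920 to 48493377 reads, so counting error matters mainly for genes with few reads.

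Replicate labels are shared by groups. Among groups with at least 3 labels in common, the deviations of same-labelled libraries correlated above 0.1 in every pair only for atfs1 and WT of batch 3 (0.446 to 0.693), and the replicate block left its count of calls at 1. Named genes were the 10 with the largest smaller difference, the extremes of each threshold, of *et15* minus *et17* and of *nuo-6*, the 5 highest in *et17*, those called in the loss-of-function groups (up to 6 a direction), and every other gene once. Gene positions are those of Ensembl 115, on the same build, which holds all but 1 of the genes. Promoter and protein sequences were not used here. Other tools were Python 3.11.15, numpy 2.4.6, pandas 2.3.3 and matplotlib 3.10.9.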

Additional observations from a re-analysis of the deposited data

Results flagged for a closer look

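In 6 of 105 groups of 4 to 10 libraries of the 34 genes picked out by value, 1 library lay far from the rest by Dixon's ratio (the gap to the nearest library over the whole range), where chance gives about 1 in 20. F48G7.5 and F48G7.8 were low in *et15* 3 (ratios 0.724 and 0.79; 30.8 and 3.37 normalized CPM), the library in which 107 of the 122 genes were highest. K02E11.10 was low in *et15* 6 (0.771). In *nuo-6*, BE0003N10.6 was low in library 5 (0.645), F15B9.8 high in library 2 (0.676; 78.4 normalized CPM) and F35F10.5 high in library 3 (0.68; 15.4, against 2.06 to 4.10 in the other 5).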

How the results depend on the processing

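Alternatives were 2 other pseudocounts, library size as the only scaling, 2 filters, edgeR, DESeq2, a fit of only the 2 groups compared, a replicate block, the stage index as a covariate, and leaving out each library. The number of genes that meet the rule was 122, and was 185 with a pseudocount of 0.1 (118 shared), 50 with 2 (45 shared), 223 with group medians (115 shared), 23 with the stage index (9 shared; this alternative was added after seeing the data), and 34 to 281 without 1 library. Of the 122 genes, those called were 114 in *nuo-6;hif-1* (19 with the stage index, 9 higher and 10 lower; 97 to 116 without 1 library), 21 in atfs1DEL (4 with a pseudocount of 2, 3 with no filter, 45 with the stage index, 15 higher and 30 lower, 10 by edgeR and 10 by DESeq2, each 2 higher and 8 lower, and 3 to 42 without 1 library), 5 in NA238 (2 with no filter, 2 by edgeR, 19 with the stage index, 4 higher and 15 lower, 24 in a fit of the 2 groups, 20 higher and 4 lower, 1 to 5 without 1 library), 1 in atfs1 (0 with a pseudocount of 2 or no filter, 4 with the stage index, 6 in a fit of the 2 groups, 0 in each fit without 1 library) and 1 in *hif-1* (2 with the stage index, 0 in a fit of the 2 groups, 0 to 1 without 1 library). Of 19 mitoUPR genes, those called were 8 in *et15* (5 with no filter, 5 with the stage index, 4 to 8 without 1 library), 3 in *et17* (5 with library size, 5 with the replicate block, 6 with the stage index, 3 to 4 without 1 library) and 10 in *nuo-6* (10 in each fit without 1 library). Shares of all genes under these alternatives are not given beside these counts. The causes were not tested. With the replicate block the calls were 111 in *nuo-6;hif-1*, 29 in atfs1DEL, 6 in NA238, 1 in atfs1 and 1 in *hif-1*, and 9 and 10 of the mitoUPR genes in *et15* and *nuo-6*. Outside atfs1 and WT of batch 3 the labels were not shown to pair libraries. Library size as the only scaling moved the median of all genes in *nuo-6* to -0.11, from -0.03. Genes with under 20 reads in WT 1 to 3, such as C03A7.2, have the least certain differences.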
